A study of Mus musculus with 8 samples.

Results

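Complement, coagulation and fibrinolysis genes were examined in kidney cortex of mice with and without Sav1, which encodes salvador, a scaffold protein of the Hippo pathway. Members were the 48 listed genes of these systems, matched by symbol, and 47 of them had a row in the deposited table of 21705 gene names (C7 was not analysed here). One group of 4 libraries came from mice labelled Sav1+/+ that received vehicle (wild-type), and the other group of 4 from mice labelled Sav1-/- that received tamoxifen (Sav1-null), all of mixed background. Genotype and treatment therefore changed together. The names of the value columns end in the same set of suffixes in both groups, and the labels name no batch. Whether the groups were prepared and sequenced together is therefore not known. The labels do not give the cell type in which Sav1 was deleted, the age of the mice, or whether each library came from its own animal. The p-values therefore speak only of how these 8 libraries spread, and some of that may be technical.

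Complement is a cascade of plasma proteases in which the classical pathway (C1q with C1r and C1s), the lectin pathway (MASP proteases) and the alternative pathway (factors B and D) meet at the cleavage of C3, and membrane and plasma regulators hold it in check. Coagulation runs from tissue factor through a chain of proteases to thrombin, which cuts fibrinogen to fibrin, while plasminogen activators dissolve the clot. Most of these proteins are secreted by the liver, but kidney tubules, endothelium and macrophages make some of them locally.

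Values are the deposited normalized expression levels, scaled so that the upper quartile of the values above 0 lies near 1000 in each library. They are not divided by gene length, so levels of different genes are not compared. A library held about 15700000 to 25000000 reads, and 3 reads corresponded to 2.34 to 3.09 in this unit, an estimate that covers counting error only. Sav1 itself was at 1504, 1743, 959 and 1193 in the wild-type and 983, 914, 982 and 714 in the Sav1-null libraries, and wild-type replicate 3 lay inside the Sav1-null range (log2 fold change -0.56, limma adjusted p = 0.022, not called without wild-type replicate 1 or 2 or with equal totals). The deleted exons are not named in the labels, so this value does not measure the intact transcript. A marker of cortex was present in each of the 8 libraries, though not at an equal level. The proximal tubule phosphate transporter gene Slc34a1 was at 134718 to 159044 in the wild-type and 10492 to 28344 in the Sav1-null libraries. It was 7.77-fold lower in the Sav1-null group (limma adjusted p = 1.91e-05). Xist was at 9280 or above in each Sav1-null library, against a single read over the whole wild-type group. The Y-linked genes Ddx3y, Eif2s3y, Kdm5d and Uty were without a read in the Sav1-null group and at 325.77 or above in each wild-type library. By these transcripts the Sav1-null libraries had the pattern of females and the wild-type libraries that of males. Genotype, treatment and sex therefore cannot be told apart in any difference between the groups given below. Sav1-null replicate 4 stood apart from the others of its group, with the lowest summed endothelial markers (1969 against up to 4203), the lowest summed fibroblast markers (2289 against up to 7532) and the highest summed neutrophil markers (521 against as little as 40.6). Among the wild-type libraries, replicates 2 and 3 had the tubule injury gene Havcr1 at 1099 and 665, against 23.6 and 15.5 in replicates 1 and 4.

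Of the 47 members, 39 passed a filter on the mean level (at least 10) and were tested with limma on log2(value + 1). At a limma adjusted p under 0.05, 28 of them were higher and 8 lower in Sav1-null cortex, and 3 were not called. Over all 13677 tested genes 69.1% were called, 43.9% higher and 25.2% lower, with a median log2 fold change of 0.23, against 1.89 for the 39 members. Among complement genes 15 of 19 tested were higher and 4 lower (median 2.68), and among coagulation and fibrinolysis genes 13 of 20 were higher and 4 lower (median 1.22). The groups did not overlap in 26 of the 28 higher members and in 6 of the 8 lower ones, and over all tested genes the groups did not overlap, with the Sav1-null group higher or lower, in 41.0% and 24.1%. Members reached the test through their level, and 8 that lay below the filter are described with their values. C6, C5ar1 and F10 had wild-type means under 10 and passed only through their Sav1-null values. Hc and Pzp had Sav1-null means under 10 and passed only through their wild-type values. For these members the filter itself favours the direction called. Rescaling the libraries by median of ratios, by quantiles and to equal totals moved the median of all tested genes by -0.23, -0.26 and 0.39, and the share of higher calls among all calls from 63.5% to 49.7%, 48.3% and 81.8%.

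**Figure D1:**
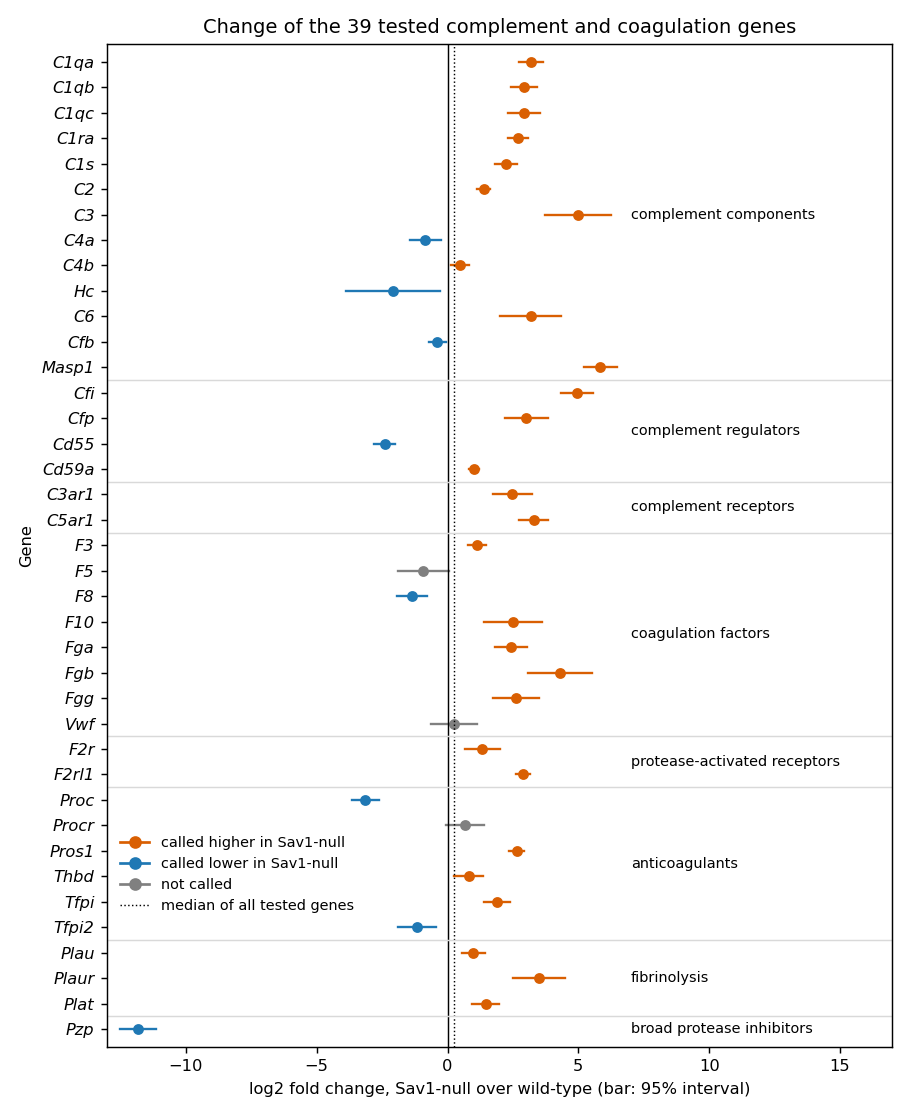
Log2 fold change (Sav1-null against wild-type, from log2(value + 1)) of the 39 tested members, grouped by role. Points are limma estimates, bars their 95% intervals, colours the call, and the dotted line marks the median of all tested genes at 0.23; 28 points are called higher, 8 lower and 3 not called.

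The genes of the C1 complex, which opens the classical pathway, were all higher. C1qa, which encodes the A chain of the recognition protein C1q, was at 126, 152, 229.7 and 136 in the wild-type and 1264, 1457, 1201 and 1883 in the Sav1-null libraries, a 9.07-fold rise (log2 fold change 3.18 ± 0.21, SE; limma adjusted p = 2.37e-06). The lowest Sav1-null value was far above the highest wild-type value. C1qb rose 7.61-fold (218 ± 61.8 to 1645 ± 359.6, SD, n = 4 per group) and C1qc 7.61-fold (139 ± 51.2 to 1024 ± 219.9), with limma adjusted p = 4.31e-06 and 1.37e-05. The 3 chains are encoded by neighbouring genes, and each had its highest value in Sav1-null replicate 4. C1ra and C1s, also neighbours, encode the proteases that C1q activates. C1ra was at 135, 172, 159.8 and 99.0 (wild-type) and 811, 969, 973 and 825 (Sav1-null), 6.40-fold higher, and C1s at 172, 184, 149 and 107 (wild-type) and 654, 793, 849 and 569 (Sav1-null), 4.69-fold higher (limma adjusted p = 2.21e-06 and 9.53e-06). In these 2 genes Sav1-null replicate 4 was not the highest, unlike in the C1q chains. C1ra has a near-identical copy, C1rb, so its value is uncertain.

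C1q is made mainly by tissue macrophages, and macrophage markers moved with it. All 12 macrophage markers tested were called higher and 0 lower (median log2 fold change 2.61), among them the signalling adaptor gene Tyrobp (5.48-fold) and the lysosomal membrane gene Laptm5 (5.24-fold). Their summed level was 1124 to 1832 in the wild-type and 5993 to 7630 in the Sav1-null libraries, a ratio of group means of 4.43. The summed C1q chains divided by the summed macrophage markers came to 0.271, 0.311, 0.446 and 0.372 in the wild-type and 0.579, 0.566, 0.550 and 0.83 in the Sav1-null libraries. These ranges did not overlap, but the marker sum weighs genes by level. Csf1r, its highest gene in the wild-type group (mean 725), rose 1.69-fold. Single markers rose from 1.69-fold to 10.5-fold (Cd68), a range that holds the 9.07-fold and 7.61-fold of the C1q chains. In tissue RNA, more or fewer cells of a type and more or less RNA per cell cannot be told apart, here and for every other gene below. Whether macrophage number has a part in the C1q difference was not tested.

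**Figure D2:**
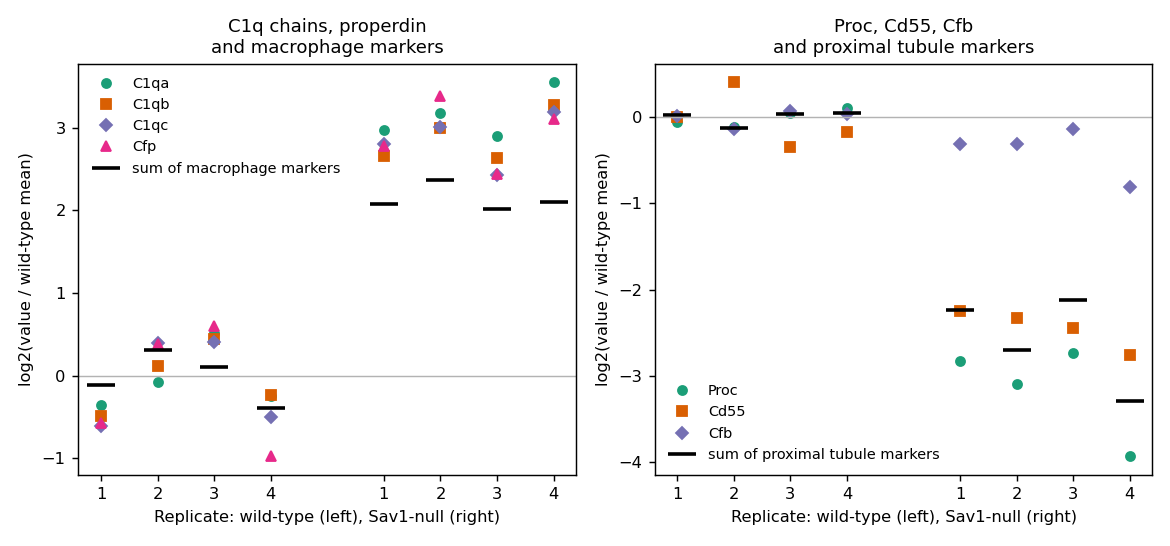
Level of named members in each library relative to the wild-type mean (log2 scale), with the summed macrophage markers (left panel) and summed proximal tubule markers (right panel) as black bars. The C1q chains and properdin (Cfp) lie above the macrophage sum in the Sav1-null libraries, while in the right panel Proc lies below and Cfb above the proximal tubule sum in each Sav1-null library. Both sums weigh markers by level, and single markers changed by more and by less than the sums.

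C3, the protein on which all pathways converge, had the highest fold change of the components except Masp1. Its level was 423, 2736, 1317 and 402 in the wild-type libraries (1219.5 ± 1097) and 22298, 29224, 25331 and 37266 in the Sav1-null libraries (28529.7 ± 6477), 31.6-fold higher (log2 fold change 4.98 ± 0.56, limma adjusted p = 4.52e-05). The wild-type libraries were uneven, with replicates 2 and 3 above the other pair, and all Sav1-null libraries lay above them. C2, the protease that joins C4 in the classical and lectin convertase, was at 849, 671, 804 and 774 (wild-type) and 2023, 2103, 2301 and 1677 (Sav1-null), 2.61-fold higher (limma adjusted p = 7.28e-06). Its neighbour Cfb encodes factor B, the matching protease of the alternative pathway, and was lower by a small amount as deposited. Cfb was at 8818, 7915, 9190.4 and 8966 (wild-type) and 7025, 7044, 7957 and 4957 (Sav1-null), 1.31-fold lower, with wild-type replicate 2 just below Sav1-null replicate 3 (log2 fold change -0.39 ± 0.14, limma adjusted p = 0.0324). That fall was lost with equal totals (-0.01, limma adjusted p = 0.968), turned to 0.20 after quantile normalization (limma adjusted p = 0.214), and missed the threshold without wild-type replicate 1, 3 or 4 or without Sav1-null replicate 2 (limma adjusted p = 0.0678, 0.0762, 0.0725 and 0.0504), and without both wild-type replicates 2 and 3 (0.0984). The value of C2 relative to Cfb, which a single scaling factor per library leaves unchanged, rose from 8.87% to 30.4% (group means), without overlap of the libraries. The neighbours may share reads where their transcripts overlap.

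The lectin pathway gene Masp1, which encodes the MASP-1 and MASP-3 proteases, showed the greatest rise of all members. It was low, at 13.6, 15.1, 10.5 and 5.15, in the wild-type and at 732, 644, 637 and 586 in the Sav1-null libraries, 57.1-fold higher (log2 fold change 5.83 ± 0.28, limma adjusted p = 7.57e-07). The Sav1-null libraries varied little around this level. Masp2, the protease that cleaves C4 and C2 in this pathway, was below the filter, with an estimated 5.43 reads or fewer in each library. C6, a component of the membrane attack complex, was at 1.81, 2.51, 3.83 and 0 (wild-type) and 30.5, 20.5, 28.4 and 14.8 (Sav1-null) (9.01-fold higher, limma adjusted p = 0.00047). Cfd, the alternative pathway protease factor D or adipsin, had no read in a wild-type library and 1 read in all Sav1-null libraries together.

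C4 is encoded by the paralogs C4a and C4b, between which reads are hard to divide, so both values are uncertain. C4b, the main mouse C4, was at 176, 224, 188 and 169 (wild-type) and 232, 292, 219 and 314 (Sav1-null), 1.39-fold higher with overlapping groups (log2 fold change 0.47 ± 0.15, limma adjusted p = 0.0196). C4a, known in mice as sex-limited protein for its androgen-dependent expression, was at 127, 163, 158 and 226 (wild-type) and 66.5, 93.8, 78.9 and 142 (Sav1-null), 1.79-fold lower, also with overlap (log2 fold change -0.84 ± 0.26, limma adjusted p = 0.0151). Both differences depended on the settings. C4b turned to -0.021 after quantile normalization (limma adjusted p = 0.913) and missed the threshold under median-of-ratios rescaling (0.25, limma adjusted p = 0.163) or without wild-type replicate 1 or 4 or Sav1-null replicate 2 (limma adjusted p = 0.0519, 0.0544 and 0.0589). C4a was not called with equal totals (-0.46, limma adjusted p = 0.135) or without both wild-type replicates 2 and 3 (-0.88, limma adjusted p = 0.0705). Hc encodes C5, the precursor of the anaphylatoxin C5a, and was nearly absent in both groups except for 1 library. It was at 5.44, 57.0, 6.70 and 5.15 in the wild-type and 3.12, 2.93, 2.37 and 0 in the Sav1-null libraries, and wild-type replicate 2 carried most of the reads of the group. Its call (log2 fold change -2.08 ± 0.80, limma adjusted p = 0.0421) was lost with a pseudocount of 10 (limma adjusted p = 0.0970) and without wild-type replicate 3 or any one Sav1-null library (limma adjusted p from 0.0510 to 0.0872), and without wild-type replicate 2 its mean was under the filter.

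**Figure D3:**
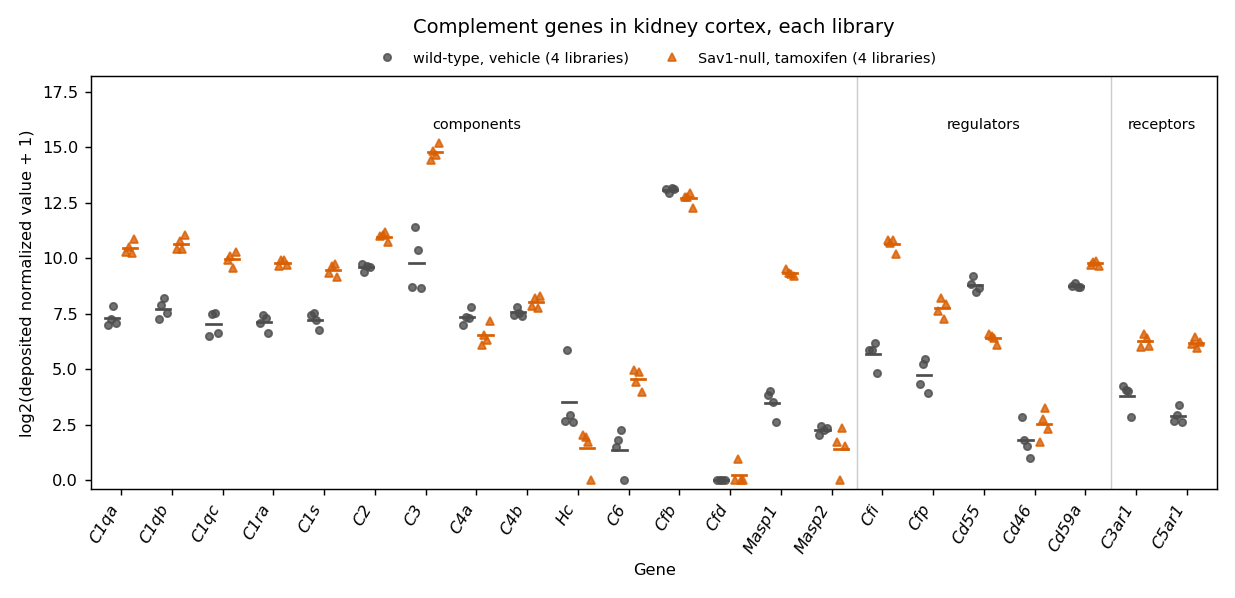
Level of each complement member in each library as log2(deposited value + 1), with short bars at the group means of the plotted values; circles are wild-type and triangles Sav1-null libraries. C1q, C1ra, C1s, C2, C3, Masp1 and Cfi separate without overlap, Cd55 separates in the opposite direction, and Cfd lies near 0.

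Regulators of complement did not move in one direction. Cfi, the plasma protease factor I that inactivates C3b and C4b, was at 57.1, 57.8, 70.8 and 27.8 in the wild-type and 1794, 1644, 1826 and 1178 in the Sav1-null libraries, 30.8-fold higher (log2 fold change 4.94 ± 0.27, limma adjusted p = 1.23e-06). No library of one group came near the other. Cd55, the membrane protein DAF that speeds the decay of convertases, went the other way: it was at 454, 598, 355 and 401 (wild-type) and 95.3, 89.9, 83.0 and 66.9 (Sav1-null), 5.29-fold lower (log2 fold change -2.40 ± 0.18, limma adjusted p = 4.96e-06). Cd59a, the membrane inhibitor of the attack complex, was at 436, 471, 416 and 424 (wild-type) and 839, 903, 950.4 and 808 (Sav1-null), 2.0-fold higher (limma adjusted p = 8.04e-06). The 3 membrane or plasma inhibitors thus comprised 2 that rose and 1 that fell. Cd59a has a paralog, Cd59b, and its value is uncertain to that extent. Cfp, or properdin, which stabilizes the alternative convertase and is made by leukocytes, rose 8.08-fold (28.3 ± 13.8 to 222 ± 61.7, limma adjusted p = 6.33e-05). Cd46, whose expression in mice is largely restricted to the testis, did not pass the filter and had 11 reads or fewer in each library.

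Both anaphylatoxin receptor genes, which are expressed mainly on myeloid cells, were higher. C3ar1 was at 18.1, 15.9, 15.3 and 6.19 (wild-type) and 62.5, 95.8, 84.5 and 65.9 (Sav1-null) (5.52-fold, limma adjusted p = 0.000137). C5ar1 was at 5.44, 6.70, 9.57 and 5.15 (wild-type) and 69.5, 88.0, 60.8 and 74.8 (Sav1-null) (9.77-fold, limma adjusted p = 5.45e-06). The wild-type values of both were low and the groups did not overlap. They stand beside the rise of the macrophage markers given above. Of 4 neutrophil markers tested 2 were called higher (50%, against 43.9% of all tested genes) and 0 lower. The called ones, Csf3r and Cxcr2, had wild-type means of 6.60 and 1.11 and passed the filter only through their Sav1-null values. The granulocyte receptor gene Csf3r was at 147 in Sav1-null replicate 4, against 25.8 to 39.1 in the others of that group. Leaving that library out, 1 neutrophil marker was called, and leaving out Sav1-null replicate 1, 4 were. C3ar1 and C5ar1 were both highest in Sav1-null replicate 2. The part of either cell type in the receptor genes was not tested.

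Among other genes of the complement system 19 of 31 in the table were tested, and 12 were higher and 5 lower (median log2 fold change 1.42). These are 63.2% and 26.3%, against 43.9% and 25.2% of all tested genes, so the lower share was near that of all genes. Clu, which encodes clusterin, a fluid-phase inhibitor of the attack complex and a tubule injury gene, rose 16.7-fold, from 5783, 7237, 7515 and 5695 to 79049.8, 107488, 83208 and 196779.5. The integrin genes Itgam (18.7-fold), Itgax (10.8-fold) and Itgb2 (4.21-fold), whose products form the leukocyte complement receptors CR3 and CR4, rose too. C8a and C8g, which encode chains of the attack complex component C8, fell 14.2-fold and 3.48-fold, as did C1rl, a C1r-like protease gene (3.34-fold), and C1qbp, a mitochondrial protein gene named for C1q binding (1.57-fold). C8a was uneven in the Sav1-null group, at 146, 24.4, 207 and 4.92, and was 7.16-fold lower without replicate 4 and 23.4-fold lower without replicate 3 of that group. These 8 genes had limma adjusted p-values between 2.06e-06 and 0.00597.

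On the coagulation side the fibrinogen genes rose together. Fga, Fgb and Fgg encode the alpha, beta and gamma chains of fibrinogen, an acute-phase protein of the liver, and the genes are neighbours on chromosome 3. Fga was at 441, 1092, 698 and 441 in the wild-type and 3740.0, 3773, 3424 and 2562 in the Sav1-null libraries, 5.37-fold higher (log2 fold change 2.42 ± 0.28, limma adjusted p = 5.33e-05). Fgg followed the same pattern at 261, 865, 576 and 254 (wild-type) and 3007, 3325, 2632 and 1842 (Sav1-null), 6.18-fold higher (limma adjusted p = 0.000242). Fgb was at 7.25, 37.7, 47.8 and 12.4 in the wild-type libraries and reached 603, 493, 363 and 289 in the Sav1-null libraries, 19.7-fold higher (log2 fold change 4.30 ± 0.54, limma adjusted p = 9.08e-05). In all 3 genes wild-type replicates 2 and 3 were the highest of their group and Sav1-null replicate 4 the lowest of its group, still above every wild-type library. The value of Fgb relative to that of Fga, read only for its change between libraries since neither is per length, came to 1.65%, 3.45%, 6.86% and 2.80% in the wild-type libraries and 16.1%, 13.1%, 10.6% and 11.3% in the Sav1-null libraries, so the chains did not change by one common factor, while Fgg relative to Fga overlapped between the groups.

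The stretches of 250 bases before the start of the fibrinogen genes are shown because these neighbours rose together, and that of C3 because it had one of the greatest rises. They come from RefSeq on build GRCm38.p6 and were matched by symbol, whereas the expression values were made on mm9. Capitals mark matches, on either strand, to the STAT motif TTCNNNGAA, the NF-kB motif GGGNNTTCC or the TEAD motif CATTCC.
Fga, chr3:83025903-83026152, plus strand: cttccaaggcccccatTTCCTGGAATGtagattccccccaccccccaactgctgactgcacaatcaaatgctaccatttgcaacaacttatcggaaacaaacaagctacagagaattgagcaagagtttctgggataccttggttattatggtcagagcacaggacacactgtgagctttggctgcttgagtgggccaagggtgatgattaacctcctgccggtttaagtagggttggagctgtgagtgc
Fgb, chr3:83049864-83050113, minus strand: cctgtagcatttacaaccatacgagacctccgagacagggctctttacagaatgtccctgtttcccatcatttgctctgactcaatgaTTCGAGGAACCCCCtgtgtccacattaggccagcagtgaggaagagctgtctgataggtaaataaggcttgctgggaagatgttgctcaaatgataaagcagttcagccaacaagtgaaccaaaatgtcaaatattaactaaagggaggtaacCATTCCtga
Fgg, chr3:83007474-83007723, plus strand: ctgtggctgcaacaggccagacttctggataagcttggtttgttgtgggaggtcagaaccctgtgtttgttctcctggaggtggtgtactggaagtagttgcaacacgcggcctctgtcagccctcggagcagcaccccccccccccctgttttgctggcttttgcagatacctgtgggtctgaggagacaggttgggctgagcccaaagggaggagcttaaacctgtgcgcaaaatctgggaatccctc
C3, chr17:57228137-57228386, minus strand: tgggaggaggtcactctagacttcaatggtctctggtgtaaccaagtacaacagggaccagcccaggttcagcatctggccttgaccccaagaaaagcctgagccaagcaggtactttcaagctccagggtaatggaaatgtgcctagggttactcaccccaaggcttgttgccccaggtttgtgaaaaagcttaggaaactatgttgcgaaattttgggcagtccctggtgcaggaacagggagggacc

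Fga held a STAT match at bases -234 to -226 before the start, overlapping a TEAD match at -229 to -224. Fgb held a STAT match at -162 to -154, overlapping an NF-kB match at -157 to -149, and a TEAD match at -9 to -4. None of these letters was found in the window of Fgg or C3, which says nothing of the factors. Of the 47 members 32 had a window in the table, and 4 of the 32 (12.5%) held the STAT motif, 2 (6.25%) the NF-kB motif and 6 (18.8%) the TEAD motif. Over the 27025 genes of that table the shares were 8.13%, 5.61% and 14.4%. The other members with a STAT match were Pros1 (TTCCAGGAA at -92 to -84), which rose, and Masp2 (TTCCCAGAA at -53 to -45), which was below the filter.

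Other procoagulant genes did not follow one pattern. Of the 8 coagulation factors tested, the fibrinogen genes included, 5 were higher (62.5%) and 1 lower (12.5%). The shares over all tested genes were 43.9% and 25.2%. F3 encodes tissue factor, the cell-surface trigger of coagulation, and was at 715, 653, 617 and 485 (wild-type) and 1248, 1326, 1098 and 1715 (Sav1-null), 2.17-fold higher (limma adjusted p = 0.000181). F10, the factor X gene, was close to 0 in the wild-type libraries, at 0.907, 3.35, 1.91 and 3.09, and at 8.59, 37.1, 13.4 and 18.7 in the Sav1-null libraries (5.69-fold, limma adjusted p = 0.00145), which missed the threshold on quantile-normalized values (0.99 on the log2 scale, limma adjusted p = 0.137). F8, the factor VIII gene, known from endothelium, was at 185, 214, 169 and 197 (wild-type) and 96.8, 85.0, 86.1 and 41.3 (Sav1-null), 2.57-fold lower without overlap (limma adjusted p = 0.00104). Its lowest value was again in Sav1-null replicate 4. Of 12 endothelial markers tested 0 were higher and 1 was lower (median -0.34), and the lower ones numbered 3 under median-of-ratios rescaling, 7 under quantile normalization and 2 with the replicate block or when Sav1-null replicate 1 or 4 was left out. One was higher with equal totals and when Sav1-null replicate 4 was left out. Without Sav1-null replicate 4 the log2 fold change of F8 was -1.09, and the part of the endothelium in it was not tested. Vwf, the von Willebrand factor gene, was low in all libraries, at 17.2, 7.54, 13.4 and 6.19 (wild-type) and 17.2, 8.80, 15.0 and 9.84 (Sav1-null), and was not called (log2 fold change 0.24, 95% interval -0.64 to 1.11, limma adjusted p = 0.607), but had a log2 fold change of -1.10 after quantile normalization (limma adjusted p = 0.0257). F5, the factor V gene, was at 26.3, 11.7, 18.2 and 21.6 (wild-type) and 14.8, 8.80, 14.2 and 3.94 (Sav1-null) (log2 fold change -0.92, 95% interval -1.89 to 0.05, limma adjusted p = 0.0822). It was called lower after median-of-ratios rescaling (-1.13, limma adjusted p = 0.0404) and quantile normalization (-2.16, limma adjusted p = 0.000705).

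Several plasma factors were nearly absent. F2, the prothrombin gene, had 1 read in all 8 libraries together, F7 at most 3 reads in a library and F13a1, the factor XIII A chain of macrophages and platelets, at most 8. These 3 genes were below the filter. Hepatocyte markers gave no common direction, with 2 of 8 tested higher and 3 lower, and the hepatocyte genes Ahsg (1 read in all libraries) and Cyp7a1 (no read) were at or near 0 in every library. The summed hepatocyte markers were at 12398 to 16151 in the wild-type and 2449 to 5398 in the Sav1-null libraries. Most of the wild-type sum was Ttr, the transthyretin gene, at 10956 to 14924, which fell 66.5-fold, whereas the antitrypsin paralogs Serpina1a and Serpina1b, whose values are uncertain, rose 69.8-fold and 9.20-fold. The fall of the sum is therefore not a fall of the whole list, and the part of hepatocyte genes in these factors was not tested. Platelet markers were low, with 2 of 9 above the filter, 1 of them higher and 1 lower, and their summed level was 121 to 147 in the wild-type and 96.9 to 121 in the Sav1-null libraries. Red cell markers fell in 4 of 4 tested, with a summed level of 3539 to 8061 in the wild-type and 1016 to 1684 in the Sav1-null libraries.

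**Figure D4:**
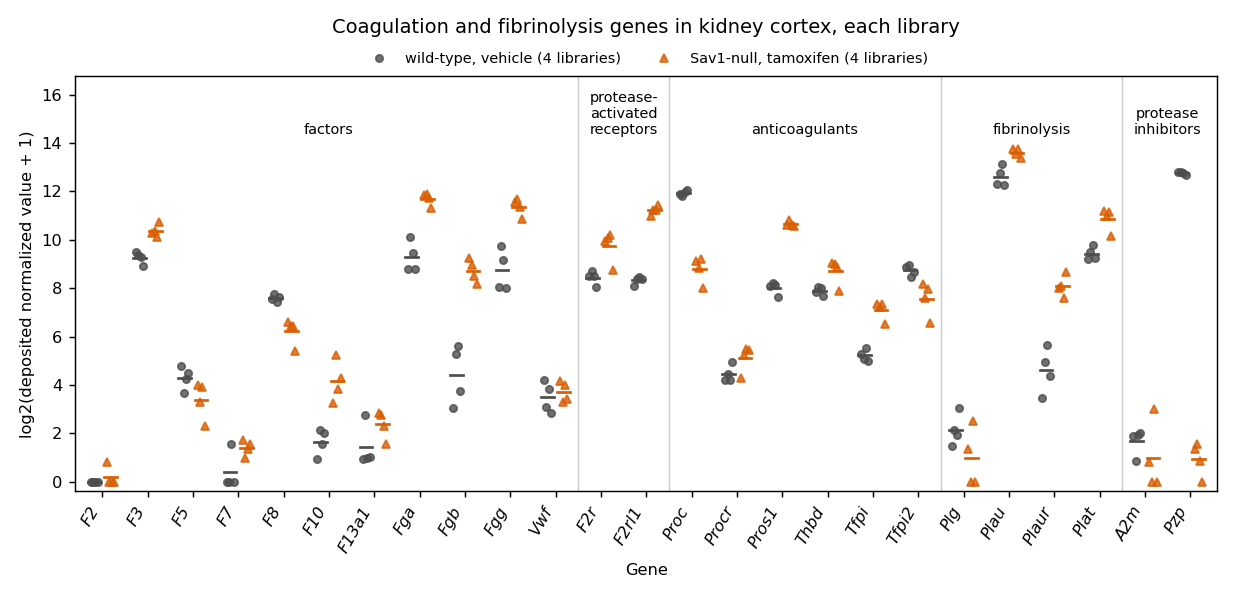
Level of each coagulation and fibrinolysis member in each library as log2(deposited value + 1), with short bars at the group means of the plotted values; circles are wild-type and triangles Sav1-null libraries. The fibrinogen genes, F2rl1, Pros1 and Plaur lie higher and Proc, F8 and Pzp lower in all Sav1-null libraries, while F2 and F7 lie near 0.

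F2rl1 and F2r, the 2 members that encode receptors through which coagulation proteases signal to cells, were higher. The related receptor genes F2rl2 and F2rl3 had at most 5 and 8 reads in a library and overlapping groups. Both were below the filter and not tested. F2rl1 encodes PAR2, a receptor for trypsin-like proteases and the tissue factor complex, and was at 269, 333, 352 and 333 (wild-type) and 2018, 2403, 2388 and 2738 (Sav1-null), 7.39-fold higher (log2 fold change 2.89 ± 0.12, limma adjusted p = 3.49e-07). F2r, the thrombin receptor PAR1, was at 360.0, 413, 362 and 261 (wild-type) and 993, 1079, 1173 and 435 (Sav1-null), 2.49-fold higher (limma adjusted p = 0.00316). Sav1-null replicate 4 was the highest library for F2rl1 and by far the lowest of its group for F2r, and without it the log2 fold change of F2r was 1.65.

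Anticoagulant genes split. Proc, the gene of the anticoagulant protease protein C, was at 3765, 3625, 4027 and 4209 in the wild-type and 550.5, 458, 588 and 256 in the Sav1-null libraries, 8.82-fold lower (log2 fold change -3.14 ± 0.23, limma adjusted p = 4.25e-06). Pros1, which encodes the protein C cofactor protein S, moved in the opposite direction, from 272, 292, 282 and 196 to 1583, 1781, 1569.8 and 1533, 6.25-fold higher (log2 fold change 2.64 ± 0.13, limma adjusted p = 7.57e-07). The enzyme and its cofactor were thus both far outside the spread of the libraries, on opposite sides. Of the receptors that activate protein C, Thbd (thrombomodulin) was at 228, 262, 254 and 206 (wild-type) and 531, 510.3, 462 and 236 (Sav1-null), 1.75-fold higher with Sav1-null replicate 4 inside the wild-type range (limma adjusted p = 0.014), which missed the threshold on quantile-normalized values (0.46 on the log2 scale, limma adjusted p = 0.146). Procr, the endothelial protein C receptor, was at 17.2, 20.9, 17.2 and 29.9 (wild-type) and 18.7, 37.1, 43.5 and 42.3 (Sav1-null) and not called (log2 fold change 0.67, 95% interval -0.05 to 1.39, limma adjusted p = 0.0874). It was called higher with equal totals (1.04, limma adjusted p = 0.0136) and without Sav1-null replicate 1 (0.94, limma adjusted p = 0.0133), and its log2 fold change was -0.48 after quantile normalization. Tfpi, the inhibitor of the tissue factor complex, rose 3.71-fold (36.7 ± 6.32 to 141 ± 33.3, limma adjusted p = 6.23e-05). Tfpi2, a related Kunitz inhibitor of plasmin and trypsin, was at 466, 499, 346 and 400.0 (wild-type) and 288, 192, 249 and 92.5 (Sav1-null), 2.24-fold lower (limma adjusted p = 0.00886).

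The fall of Proc stood beside that of the proximal tubule markers, of which 8 of 9 tested were lower and 0 higher (median log2 fold change -2.25). Their summed level was 341768 to 385638 in the wild-type and 37800 to 85799 in the Sav1-null libraries. Proc came to 0.996% to 1.09% of this sum in the wild-type and 0.677% to 0.799% in the Sav1-null libraries, without overlap. The sum weighs markers by level. Single markers fell from 1.65-fold (Slc5a12, not called) to 9.36-fold (Slc5a2), a range that holds the 8.82-fold of Proc. The part of the tubule markers in the fall of Proc was not tested.

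Fibrinolysis genes that passed the filter all rose. Plau, the urokinase gene, long known as an abundant tubule transcript, was at 5125, 6858, 8891 and 4866 (wild-type) and 13734, 11967, 13650.4 and 10504 (Sav1-null), 1.98-fold higher (log2 fold change 0.99 ± 0.19, limma adjusted p = 0.0013). Its receptor gene Plaur, low in the wild-type group at 9.98, 30.2, 49.8 and 19.6, reached 258, 273, 194 and 411, 11.2-fold higher (log2 fold change 3.49 ± 0.43, limma adjusted p = 8.62e-05). Plat, the gene of tissue plasminogen activator, was at 595, 718, 871 and 598 (wild-type) and 2347, 2018, 2284 and 1155 (Sav1-null), 2.73-fold higher (limma adjusted p = 0.000354). The receptor showed a larger fold change than either activator. Plg, the plasminogen gene, a liver product, did not pass the filter and had 7 reads or fewer in each library.

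The protease inhibitor Pzp, of the alpha-2-macroglobulin family, had the largest difference of all members. It was at 7049, 7098, 6998 and 6608 in the wild-type libraries and had 5 reads in all Sav1-null libraries together (log2 fold change -11.82 ± 0.30, limma adjusted p = 2.59e-08). Sex-chromosome transcripts separated the groups in the same way, so a part of sex in this difference cannot be told apart from genotype and treatment. A2m, its relative, was below the filter at 2.72, 0.838, 2.87 and 3.09 (wild-type) and 0.781, 0, 7.11 and 0 (Sav1-null), with overlapping groups.

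Of 29 other coagulation and fibrinolysis genes 20 were tested, with 7 higher and 8 lower (median log2 fold change -0.18). These are 35% and 40%, against 43.9% and 25.2% of all tested genes. Kng1, a kininogen gene with a close paralog, Kng2, rose 37.6-fold, from 9.07, 13.4, 5.74 and 6.19 to 279.5, 374, 329 and 402. Anxa2 and S100a10, whose products form a plasminogen-binding complex on cell surfaces, rose 12.7-fold and 3.27-fold. Falls were seen in Serpinf2, the alpha-2-antiplasmin gene (18.7-fold, 10028 ± 391 to 564 ± 197), in Proz, the protein Z gene (8.23-fold), and in Mcfd2, a cargo receptor gene for factors V and VIII (1.58-fold). Hrg, the histidine-rich glycoprotein gene, was at 199, 168, 269 and 153 in the wild-type libraries and without a read in the Sav1-null group, at least 74.4-fold lower against a floor of 3 reads in each library. The limma adjusted p-values of these 7 genes lay between 2.24e-07 and 0.000123.

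Within the wild-type group the higher members shared an order of the libraries. In 25 of the 28 members called higher (89.3%) wild-type replicate 2 or 3 had the highest wild-type value, against 67.5% of all 6002 genes called higher. These are the libraries with high Havcr1. C3, the fibrinogen genes and Plaur were each higher in both of them than in either of the others. Leaving out both, an alternative added after seeing the data, gave 15 higher complement members and 13 higher coagulation and fibrinolysis members, the counts of all libraries, and 1 and 4 lower ones, and moved the fold by over 1.5 times in 6 members. C3 was then 67.7-fold, Fgb 40.1-fold, Plaur 18.3-fold, C6 14.1-fold, Cfp 12.3-fold and Fgg 10.2-fold higher. In the Sav1-null group replicate 4 was the lowest library in 15 of the 28 higher members (53.6%), against 29.4% of all genes called higher, and the highest in 8 (28.6%), against 49.4%.

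**Figure D5:**
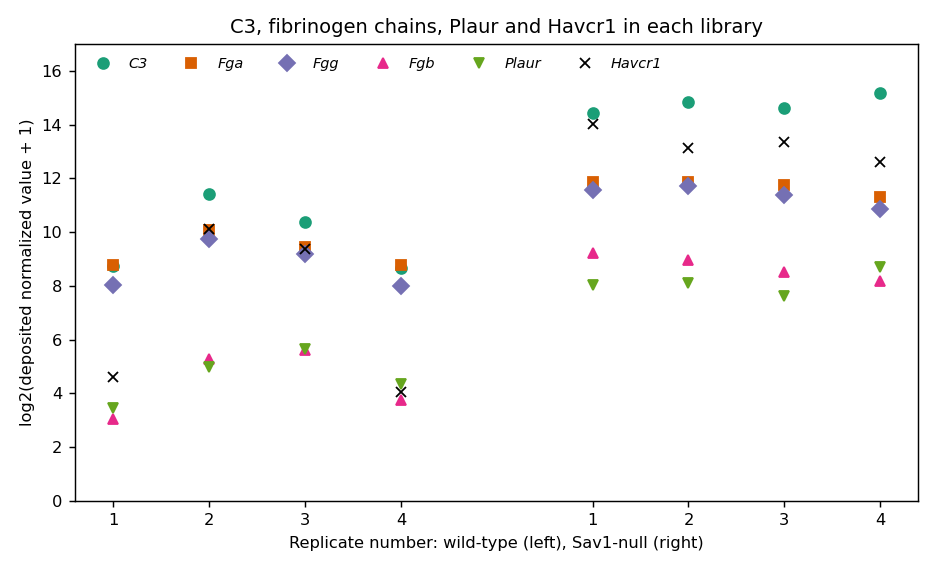
Level of C3, the fibrinogen genes, Plaur and the injury gene Havcr1 in each library as log2(deposited value + 1); replicate numbers carry no order. In the wild-type group replicates 2 and 3 lie above replicates 1 and 4 for every gene shown, and all Sav1-null values lie above all wild-type values of the same gene.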

How the data were processed

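Stranded mRNA libraries of 8 samples of kidney cortex RNA were sequenced, per the labels' protocols. Build mm9 and the tools RSEM, SAMtools and Picard 1.64 are named in the submitters' processing notes. The aligner, annotation and use of strand were not given in the sources used here. The authors deposited 1 normalized signal per gene and library, whose upper quartile above 0 is near 1000. From 92.7% to 93.3% of the values below 400 lay within 0.02 of a whole multiple of the smallest step, too few to treat them as counts. RSEM divides reads among similar genes, so paralogs and overlapping or antisense genes are uncertain.

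Groups came from the titles. Genes with a mean of at least 10 were compared as log2(value + 1), with fold changes on that scale, which understates low genes, in R 4.3.3 with limma 3.58.1 (intensity trend, 6 residual degrees of freedom, two-sided) and Benjamini-Hochberg adjustment over 13677 genes. The test was checked on simulated data. Fold changes are antilogs. Libraries of a group differed by more than sampling noise (chi-square over its degrees of freedom between 12.9 and 114). Every member with a row is reported, and from related lists up to 4 called genes with the smallest p in each direction. From marker lists up to 3 called genes per direction and genes at 0 could be named. One gene that this rule selects is left out here. Havcr1, Slc34a1, Csf3r, Csf1r, Cd68, Slc5a2, Slc5a12, F2rl2, F2rl3 and Gpr77 were chosen after their values were seen. The members and lists were chosen with earlier results of these data known. Alternatives were pseudocounts of 0.5 and 10, no filter, median-of-ratios, quantile and equal-total scaling, no variance trend, a replicate block and leaving out libraries. Lists of markers whose counts are not given above were fibroblast (7 of 8 tested higher, 0 lower), lymphocyte (5 of 5 higher), smooth muscle (2 of 5 higher, 1 lower), podocyte (1 of 5 higher, 3 lower), thick ascending limb (1 of 4 higher, 0 lower), distal tubule and collecting duct (4 of 7 higher, 0 lower), injured tubule (9 of 9 higher), urothelium and mesothelium (6 of 7 below the filter, and the other, Msln, above it only through Sav1-null replicate 4, so its call says nothing of the list) and sex chromosomes (1 of 5 higher, 4 lower). Over all tested genes 43.9% were called higher and 25.2% lower, the shares to set beside every marker count. No protein sequences were used here.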

Additional observations from a re-analysis of the deposited data

Results flagged for a closer look

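In the following groups of 4 libraries a single library lay far from the other 3, with a gap to its neighbour that took a larger share of the group's range than Dixon's 95% critical value. Of 216 groups looked at 16 were of this kind, and chance gives about 1 in 20. Among the members, Hc stood apart in wild-type replicate 2 (gap 0.97 of the range), F13a1 in wild-type replicate 2 (0.975), both as high values. A2m was low in wild-type replicate 2 (0.835) and high in Sav1-null replicate 3 (0.89). For Cfd and F2 in the Sav1-null group and F7 in the wild-type group (each 1) the difference was 1 or 2 reads in a single library. Among other genes, Itgb2 (0.939) was high in Sav1-null replicate 2 and Cd3d (0.886) low in Sav1-null replicate 1. Proz (0.853) was low, and Csf3r (0.89), Cxcr2 (0.887) and Msln (0.975) were high, in Sav1-null replicate 4. In the wild-type group Cd8a (0.878) was low in replicate 3, Itga2b (0.841) low in replicate 2, and Xist (1) had its single read in replicate 2.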

How the results depend on the processing

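Of the 36 called members 30 kept their call and direction under all 17 alternatives in which they were tested, 25 of 28 higher and 5 of 8 lower. The exceptions were C4b, F10 and Thbd among the higher and C4a, Hc and Cfb among the lower. The number of lower complement members, 4 over all libraries, was 1 with equal library totals, 1 without both wild-type libraries with the highest Havcr1 (added after seeing the data) and 2 to 3 when 1 library was left out (the 2 arose when wild-type replicate 3, or Sav1-null replicate 2, was the one left out). With equal totals 1946 genes of the whole table were lower in place of 3452. After quantile normalization C4b (-0.021), Cfb (0.20), Vwf (-1.10) and Procr (-0.48) changed sign, and 17 of 39 members moved by over 1.5 times in fold. A pseudocount of 10 moved 6, and leaving out any 1 library moved 0 of those that still passed the filter, which Hc did not without wild-type replicate 2, nor F10 without Sav1-null replicate 2 or 4. The replicate numbers were not taken as pairs. Same-numbered libraries had correlations of deviations of 0.14, 0.08, -0.17 and 0.13, and libraries did not all correlate best with their own number. Such correlations cannot settle whether libraries were handled in pairs. The replicate block gave 5927 higher and 3391 lower genes in place of 6002 and 3452, and changed no member's call. The cause of these changes was not tested. The 8 members below the filter had at most 11 reads in a library, too few for a firm comparison of the groups.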
